A study of Mus musculus with 4 samples.

Results

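The genes described here are 9 writers, readers and partners of histone H3 lysine 9 methylation, out of 24116 genes in the count table. They are the methyltransferase genes Ehmt1, Ehmt2, Suv39h1 and Suv39h2, the heterochromatin protein 1 (HP1) genes Cbx1, Cbx3 and Cbx5, and the remodeller and chaperone pair Atrx and Daxx. They were chosen by name, through the Entrez gene number of each row, and all 9 had a row and were abundant enough to be tested. Mouse embryonic stem cells of the strain labelled 12910la were sequenced in 4 libraries of total RNA. Of these, 2 libraries are labelled as a Kdm2a knockout and 2 as wild type. The knockout line came from transfection of a Kdm2a guide RNA with sorting for GFP, and it is 1 expanded clone. The titles say knockout and the genotype label of the same samples says knocked down. All cells grew on gelatin with 15% serum and 10 ng/ml LIF, the cytokine that holds these cells in the pluripotent state. The text on transfection stands on the wild-type samples as well. Whether libraries of the same group were grown as different cultures is not said, so the tests cover the scatter among these 4 libraries and that scatter may be technical.

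Methylation of histone H3 at lysine 9 marks silent chromatin. GLP (Ehmt1) and G9a (Ehmt2) act as a pair that places the mono- and dimethyl marks across gene-rich chromatin, while SUV39H1 and SUV39H2 make the trimethyl mark at the repeats beside centromeres. HP1 proteins read these marks through their chromodomain, and ATRX with DAXX deposits the histone variant H3.3 at telomeres, pericentric repeats and retroelements. KDM2A, the enzyme whose gene was targeted, removes methyl groups from H3 lysine 36, is drawn to unmethylated CpG islands by its CXXC zinc finger, and is known to bind HP1.

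By median, the starts of the 9 genes were richer in CpG than those of all tested genes. RefSeq promoters (GRCm38.p6, 250 bases before and 50 after each start) were found for all 9 genes, in 15 windows, since several genes have more than 1 start. The ratio of observed to expected CpG had a median of 0.88 in these windows and a range of 0.36 to 1.09. The median was 0.74 over 14169 windows of tested genes and 0.38 over all 32851 windows. Atrx is shown because its window had the lowest ratio among first starts, 0.58, and Suv39h2, at 0.94, is shown beside it. The stretches printed for these genes lie before the start and outside annotated genes, with each CG in capitals (a last C in capitals belongs to a pair cut by the end). The stretch of Suv39h2 holds 22 CG pairs and that of Atrx 5.
Suv39h2, chr2:3475032-3475236, minus strand: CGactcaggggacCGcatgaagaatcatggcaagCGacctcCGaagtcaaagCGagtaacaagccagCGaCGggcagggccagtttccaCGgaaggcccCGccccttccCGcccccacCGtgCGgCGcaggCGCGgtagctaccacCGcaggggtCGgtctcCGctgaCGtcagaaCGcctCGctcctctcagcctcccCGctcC
Atrx, chrX:105929404-105929622, minus strand: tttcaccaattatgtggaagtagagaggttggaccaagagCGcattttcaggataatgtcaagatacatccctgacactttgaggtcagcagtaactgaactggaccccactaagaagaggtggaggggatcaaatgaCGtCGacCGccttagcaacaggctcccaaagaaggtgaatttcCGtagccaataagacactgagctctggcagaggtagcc

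The promoters of 3 of the 4 methyltransferase genes and of Cbx5 hold the same run of 10 bases, a match to the motif of NRF1, an activator of housekeeping genes. The motif was searched on both strands as GCGCA, any base and GCGC, after the sequences had been read. In this form it was present in 10.9% of 11153 tested genes with a window and in 4.60% of all windows. How often the exact run of 10 bases occurs in other genes was not counted. The 9 genes had 15 windows with a median GC content of 69.7%. The 11153 tested genes had 14169 windows with a median of 60.7%, and the shares were not adjusted for these differences. The match is in capitals in the stretches below, of which that of Cbx5 overlaps the annotated Cbx5 gene.
Ehmt1, chr2:24919738-24919767, minus strand: gaatttcagcGCGCAGGCGCcacctggcct
Suv39h1, chrX:8074761-8074784, minus strand: ctttgctactGCGCAGGCGCactc
Suv39h2, chr2:3475093-3475122, minus strand: ccaccgtgcgGCGCAGGCGCggtagctacc
Cbx5, chr15:103239853-103239879, minus strand: aggattggttGCGCAGGCGCagggaag
The match began 148 bases before the start of Ehmt1, 126 before that of Suv39h2, 17 before that of Cbx5 and 14 before that of Suv39h1. Letters of the YY1 motif (AANATGGC, both strands) were found at 6 of the 9 genes, namely Ehmt2, Suv39h1, Suv39h2, Cbx5, Atrx and Daxx, and at 9.47% of tested genes with a window. At Suv39h2 and Atrx the match began 37 and 33 bases after the start. The stretch around the match at Cbx5 overlaps the neighbouring gene Hnrnpa1. That of Suv39h1 belongs to its second window and overlaps Suv39h1 and Gm14820. At Daxx, the stretch around the match AACATGGC overlaps BC051226. The other Daxx match, AATATGGC, began 2 bases after the start of its first window, and the stretch around it overlaps Daxx. The E2F motif (TTTNGCGC, both strands) was found at Cbx3 and Cbx5, and at 2.76% of tested genes. A CCAAT box (CCAAT, both strands) was found at 4 of the 9 genes and 43.2% of tested genes, and the SP/KLF motif (GGGCGG, both strands) at 8 and 68.5%. The E2F and NRF1 matches at Cbx5 stand at separate places. These are matches of letters, and no binding was measured.

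Total counts were 19056529 and 18872382 in the libraries labelled knockout and 19005131 and 18844246 in wild type. The pluripotency genes Pou5f1, Sox2, Nanog, Zfp42, Esrrb, Klf4, Tfcp2l1 and Utf1 were all tested, with summed levels of 5786 and 4870.0 CPM (read counts scaled to library size with TMM factors) in the libraries labelled knockout and 5183 and 5469 CPM in wild type. The sums hide differences of single genes within a group. Nanog had 383 and 761 CPM and Zfp42 260 and 565 CPM in wild type. Klf4 had 533 and 251 CPM in the libraries labelled knockout. Esrrb varied less, at 1108 and 1139 CPM in the libraries labelled knockout and 958 and 1025 CPM in wild type. Fibroblast markers summed to 38.4 and 21.4 CPM against 47.6 and 22.3 CPM over 3 tested members of 8, with Lum at a count of 0 in every library. Endoderm markers summed to 98.3 and 139 CPM against 114 and 76.6 CPM (6 tested of 7), mostly from Lama1. Trophoblast markers summed to 66.4 and 112 CPM against 96.0 and 54.4 CPM (6 tested of 8). Tfap2c was the highest of the trophoblast markers in every library, but in wild type 2 it gave only 23.1 of 54.4 CPM. Cdx2 and Elf5 had at most 2 counts in a library. The part of these marker levels in the results was not tested. Kdm2a itself had 3710 and 4753 counts in the libraries labelled knockout and 2899 and 3554 in wild type, a log2 fold change of 0.44 (SE 0.24). Its RNA was thus not lower under the knockout label. Both libraries labelled knockout lay above both wild-type libraries, as for 11.7% of all tested genes. RNA counts do not show whether the protein was lost, and every direction below rests on the labels. Knockout 1 was closer to wild type 1 (r = 0.984 across tested genes, which are not replicates) and to wild type 2 (r = 0.978) than to knockout 2 (r = 0.952). Knockout 2 was closest to wild type 2 (r = 0.959) and farthest from wild type 1 (r = 0.938). The wild-type libraries had r = 0.968 with each other.

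None of the 9 genes differed between the groups beyond the spread of the libraries. Fold changes here are log2 values of the libraries labelled knockout minus wild type, fitted over all 14194 tested genes with the edgeR quasi-likelihood test and adjusted by Benjamini-Hochberg. They lay between 0.06 for Cbx1 and 0.28 for Cbx3, that is between 3.93% and 21.4% more RNA. The lowest unadjusted p was 0.335 (Cbx3), and the adjusted p was 1.00 for all 9. At the threshold of 0.05 on the adjusted p, 0 of the 9 were called, against 0% of all tested genes. On the unadjusted p, 0 of the 9 fell under the same threshold, against 1.7% of all tested genes. DESeq2 called 0 of the 9 and 0.0141% of all tested genes. With limma-voom 0 of the 9 and 0 of all 14194 tested genes were called. The edgeR likelihood ratio test called 0 of the 9 and 4 of all 14194 tested genes. Each 95% interval, not adjusted for the number of genes, held 0 and stayed inside a 2-fold change, with outer bounds of -0.72 (Atrx) and 0.92 (Cbx3). In bulk RNA, fewer cells with a transcript and less of it per cell cannot be told apart.

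**Figure D1:**
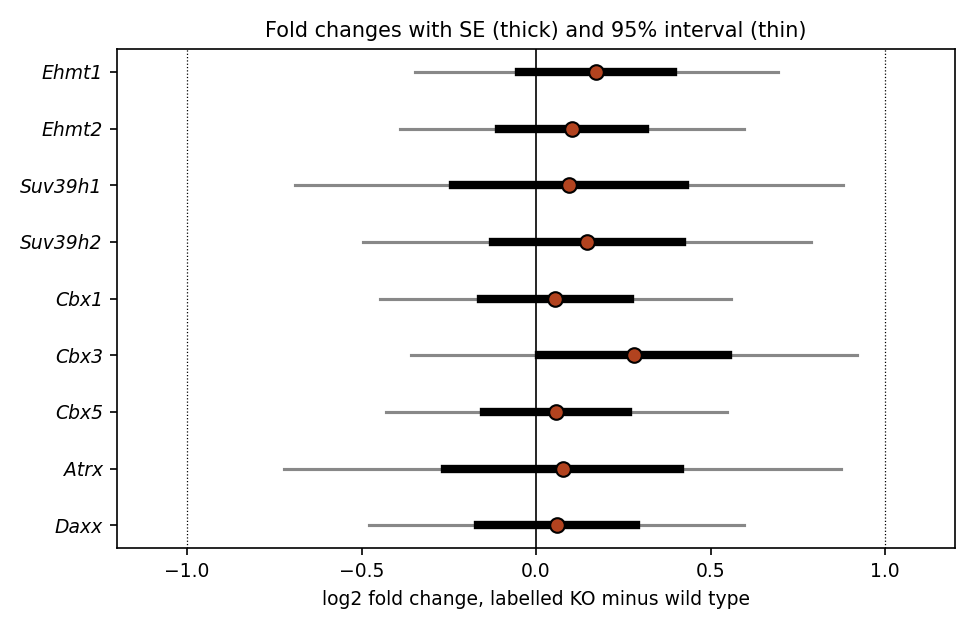
Log2 fold change of each gene (x axis, libraries labelled knockout minus wild type, 2 libraries each), with its standard error as a thick line and its 95% interval as a thin line, and dotted lines at a 2-fold change. All 9 points lie to the right of 0, between 0.06 and 0.28, and every interval crosses 0.

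All 9 fold changes had a positive sign, with a median of 0.09. Over all tested genes 7172 of 14194 were positive and the median was 0.0029. The 9 signs held under 3 other scalings, which placed the median of the 9 between 0.06 and 0.10. They did not hold when single libraries were left out, where 5 to 8 of the 9 were positive. Without knockout 1, Suv39h1 (-0.12), Cbx1 (-0.022), Cbx5 (-0.10) and Daxx (-0.017) were negative, and without knockout 2 Atrx was (-0.26). Without wild type 1, Suv39h2 (-0.015), Atrx (-0.28) and Daxx (-0.062) were negative, and without wild type 2 Suv39h1 was (-0.22). Both libraries labelled knockout lay above both wild-type libraries for 1 gene of 9, Ehmt1, against 11.7% of all tested genes, and below them for 0 of 9, against 12.7%.

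Ehmt1 encodes GLP, the partner that holds G9a in a stable complex (Entrez gene 77683, GRCm38.p6 chromosome 2, 24790769 to 24919643). It stood at 120.6 and 145 CPM in the libraries labelled knockout and at 120.2 and 116 CPM in wild type. Its groups were separated only by the narrow gap between knockout 1 and wild type 1, and with upper quartile scaling they overlapped. The means were 133 ± 17.3 CPM and 118 ± 3.26 CPM (SD, n = 2 each), a log2 fold change of 0.17 (SE 0.22). Without knockout 2 it was 0.036, and without knockout 1 it was 0.30.

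Ehmt2 encodes G9a, the catalytic centre of the pair (gene 110147, chromosome 17, 34898463 to 34914073). It had 228 and 210.0 CPM in the libraries labelled knockout and 218 and 190.3 CPM in wild type. Its groups overlapped, and library 1 was the higher one in each. The log2 fold change was 0.10 (SE 0.21). It was 0.040 without knockout 1, 0.17 without knockout 2, 0.20 without wild type 1 and 0.018 without wild type 2. Per length of exon, Ehmt2 exceeded Ehmt1 in every library, by 2.74 and 2.09 times in the libraries labelled knockout and by 2.62 and 2.38 times in wild type. The ratio was lowest in knockout 2, where Ehmt1 was highest.

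Suv39h1, one of the enzymes of pericentric trimethylation (gene 20937, X chromosome, 8061171 to 8074760), had 42.9 and 32.6 CPM in the libraries labelled knockout and 44.2 and 26.5 CPM in wild type. Wild type held both the highest and the lowest value. Near its start the gene overlaps Gm14820 in the annotation used here, and with no stated strand setting reads of overlapping genes cannot be told apart. The log2 fold change was 0.09 (SE 0.33). Suv39h2, its paralog (gene 64707, chromosome 2, 3455815 to 3474986), had 35.9 and 43.3 CPM in the libraries labelled knockout and 31.5 and 40.0 CPM in wild type. Its log2 fold change was 0.15 (SE 0.27), with overlapping groups and library 2 the higher one in each.

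The balance of the SUV39H genes differed more between libraries of a group than between groups. Suv39h1 made up 61.3% and 50.0% of the per-length sum of the pair in the libraries labelled knockout, and 65.1% and 46.8% in wild type. The means were 55.7 ± 8.01% and 55.9 ± 12.9% (SD, n = 2 each). Which paralog held the larger mean share depended on the exons counted. With the basic GENCODE set Suv39h1 averaged 45.3% and 45.8%, and with the comprehensive set 44.3% and 44.8%. With 2 libraries against 2, an exact two-sided permutation test cannot give less than p = 0.333, so no test was made on such ratios.

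Cbx5, which encodes HP1 alpha (gene 12419, chromosome 15, 103191546 to 103239904), had the most counts of the 9 genes, up to 11168 in a library. It stood at 584 and 476 CPM in the libraries labelled knockout and at 519 and 499 CPM in wild type, so both wild-type values lay between the others. The means were 530 ± 76.3 CPM and 509 ± 14.4 CPM (SD, n = 2 each), a log2 fold change of 0.06 (SE 0.21). Cbx1, which encodes HP1 beta (gene 12412, chromosome 11, 96788680 to 96808982), had the smallest fold change of the 9. It had 133 and 120.2 CPM in the libraries labelled knockout and 126 and 118 CPM in wild type, with overlapping groups and a log2 fold change of 0.06 (SE 0.21).

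Cbx3 encodes HP1 gamma, the form also found within transcribed genes (gene 12417, chromosome 6, 51470154 to 51483704). It had 109.8 and 102 CPM in the libraries labelled knockout and 69.0 and 106 CPM in wild type. Wild type 1 stood apart below the other 3 libraries, and wild type 2 lay between the libraries labelled knockout. The log2 fold change of 0.28 (SE 0.27) was 0.0055 without wild type 1 and 0.63 without wild type 2. RefSeq names 6 Cbx3 pseudogenes, and none of them matched a row of the table, so how their reads were counted is unknown and the Cbx3 values are uncertain to that extent.

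Per length, the mix of HP1 transcripts overlapped between the groups. Cbx1 made up 46.3% and 47.3% of their sum in the libraries labelled knockout and 51.6% and 45.8% in wild type. Cbx3 made up 25.3% and 26.7% against 18.7% and 27.2%, and Cbx5 28.3% and 26.1% against 29.6% and 27.0%. For each gene the wild-type libraries differed more from each other than the libraries labelled knockout did from each other, and the ranges of the groups overlapped. These shares also depended on the exons counted. Cbx1 averaged 31.6% and 33.2% with the basic set and 28.0% and 28.6% with the comprehensive set, where Cbx5 was the largest at 35.6% and 37.5% and at 55.3% and 56.8%. The mean share of Cbx3 was 32.8% and 29.2% with the basic set and 16.7% and 14.6% with the comprehensive set.

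Atrx, the remodeller (gene 22589, X chromosome, 105797615 to 105929372), varied most within groups. It had 167 and 253 CPM in the libraries labelled knockout and 144 and 255 CPM in wild type. The highest and the lowest values were again both wild type, and library 2 was the higher one in each group. The means were 210.0 ± 60.9 CPM and 199 ± 78.7 CPM (SD, n = 2 each), a log2 fold change of 0.08 (SE 0.34). Daxx, the H3.3 chaperone (gene 13163, chromosome 17, 33909404 to 33915590), had 102 and 92.7 CPM in the libraries labelled knockout and 85.4 and 102 CPM in wild type, with overlapping groups and a log2 fold change of 0.06 (SE 0.23). Per length, the level of Atrx was 0.45 and 0.75 of that of Daxx in the libraries labelled knockout and 0.46 and 0.69 of it in wild type, so library 2 had the higher ratio in each group. With the comprehensive exon set the ratio was lower, at 0.24 and 0.40 in the libraries labelled knockout and 0.24 and 0.36 in wild type.

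**Figure D2:**
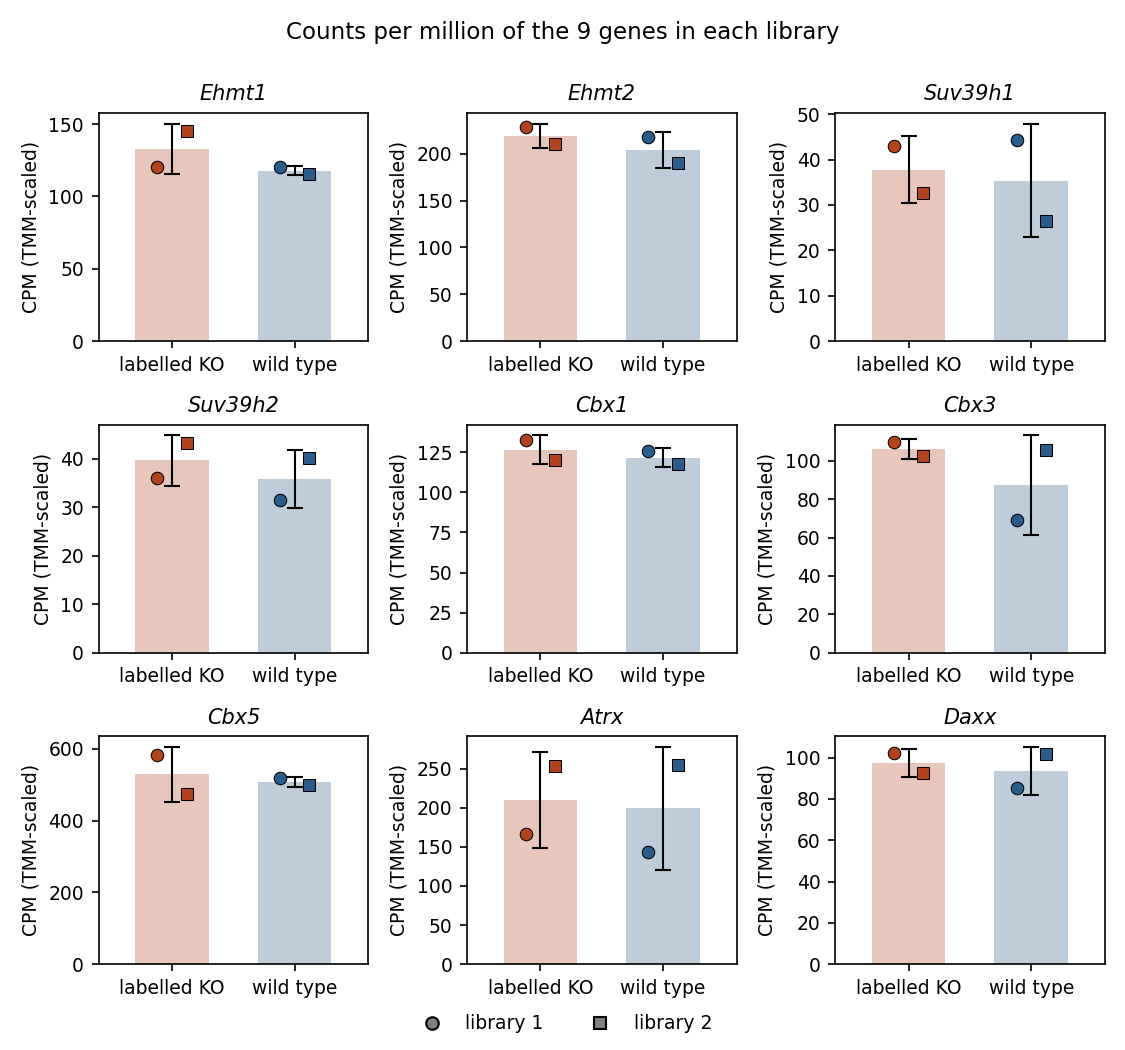
CPM (y axis, TMM-scaled, from 0) of each of the 9 genes in the libraries labelled knockout (left) and wild type (right), with bars for the mean, error bars for the SD (n = 2) and points for single libraries (circle, library 1, and square, library 2). The groups overlap for 8 genes, and they do not overlap for 24.4% of all tested genes. For 6 of the 9 genes, Atrx and Suv39h1 among them, the fold change was smaller than the difference within either group. The same held for 50% of all tested genes.

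Libraries of a group differed from each other by more than the groups did for several of the 9 genes. On the log2 CPM scale, Atrx was 0.60 higher in knockout 2 than in knockout 1 and 0.83 higher in wild type 2 than in wild type 1. Suv39h1 went the other way, at -0.40 in the libraries labelled knockout and -0.73 in wild type. Suv39h2 differed by 0.27 and 0.34 in the direction of Atrx. These 3 genes, with Ehmt2, Cbx1 and Cbx5, had the same sign in both groups, which makes 6 of 9 (66.7%), near the 63.8% of all tested genes. For all 9 genes the fold change between groups was smaller than the larger of these within-group differences, as for 86.3% of all tested genes. The titles number the libraries, but no label says what libraries of the same number share. As absolute values, the within-group differences of the 9 genes had a median of 0.27 in the libraries labelled knockout and 0.25 in wild type, against 0.39 and 0.34 over all tested genes.

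**Figure D3:**
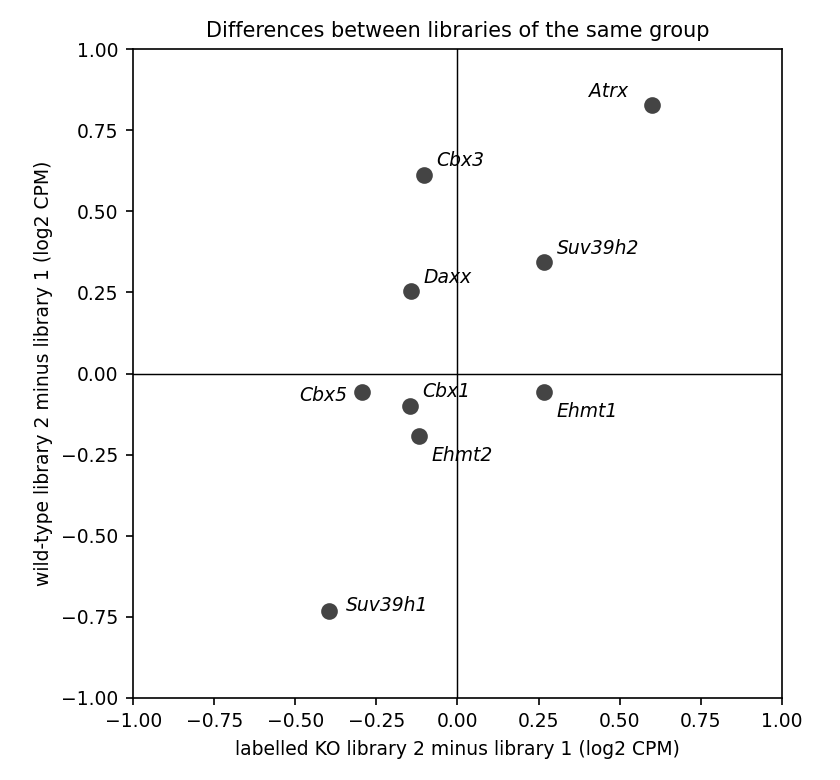
Difference between library 2 and library 1 in log2 CPM within the libraries labelled knockout (x axis) and within wild type (y axis), 1 point per gene. Atrx lies at the upper right (0.60 and 0.83) and Suv39h1 at the lower left (-0.40 and -0.73), while Cbx3 is off the diagonal (-0.10 and 0.61).

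Among themselves the 9 genes followed different profiles over the 4 libraries. By Euclidean distance of centred log2 CPM, Ehmt2 and Cbx1 were the closest pair (0.09), followed by Cbx1 and Cbx5 (0.11). Suv39h1 and Atrx were the farthest apart (1.31), and the SUV39H paralogs were 0.90 apart. The median profile of the 9 genes was 0.10 and -0.0071 in the libraries labelled knockout and -0.06 and -0.05 in wild type. Out of 7698 genes whose mean level reached 20 CPM, the 3 nearest to it were Nsun2 (distance 0.02), Prpf39 (0.02) and Phrf1 (0.02). The median profile is nearly flat, so these distances only describe likeness over 4 libraries, and a link of these genes to the 9 was not tested.

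Levels were ordered per length, as CPM per kilobase of exon in GENCODE M21 transcripts paired with RefSeq mRNAs. Cbx1 had 106 and 96.1 CPM per kilobase in the libraries labelled knockout and 101 and 94.0 in wild type, above Cbx5 in every library. Cbx5 (64.9 and 52.9 against 57.7 and 55.5), Ehmt2 (55.4 and 51.0 against 52.9 and 46.2) and Cbx3 (58.1 and 54.1 against 36.5 and 55.9) overlapped each other. Daxx followed at 36.1 and 32.7 against 30.1 and 35.9, with no overlap with either neighbour. Ehmt1 (20.3 and 24.4 against 20.2 and 19.4) and Atrx (16.2 and 24.6 against 14.0 and 24.8) overlapped, and so did Suv39h1 (13.2 and 10.0 against 13.6 and 8.15) and Suv39h2 (8.31 and 10.0 against 7.28 and 9.25), which were lowest. The order depends on the exons counted. With the exons of every GENCODE transcript, whose sum for Cbx1 is 4273 bases in place of 1251, Cbx1 stood at 29.1 CPM per kilobase over the 4 libraries and Cbx5 led at 57.7. The SUV39H genes were the lowest pair with each of 3 exon sets, but Suv39h1 stood below Suv39h2 with the basic set (7.36 and 8.71) and the comprehensive set (6.94 and 8.55).

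**Figure D4:**
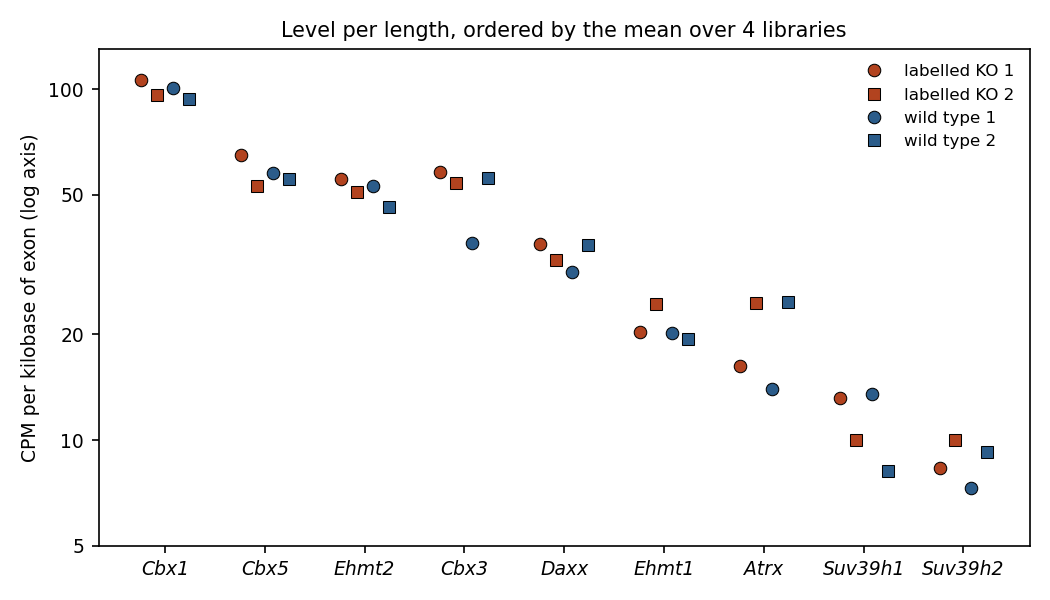
Level of each gene in CPM per kilobase of exon (y axis, log scale) in the 4 libraries, genes ordered by their mean. Cbx1 lies between 94.0 and 106, and Suv39h2 between 7.28 and 10.0.

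Genes around this pathway did not pass the test either. The edgeR quasi-likelihood test called 0 genes of the 6 lists examined, as it called 0% of all genes. Among the other H3K9 methyltransferases, all 5 were tested, 3 were positive and the median log2 fold change was 0.02. Setdb1, which trimethylates retroelements, had 3118 and 3865 counts in the libraries labelled knockout and 2688 and 3930 in wild type (log2 fold change 0.13, SE 0.27). Prdm2, a PR-domain enzyme, had 2643 and 2610 counts against 3111 and 3625 (-0.32, SE 0.21). Prdm16, assigned a role in monomethylation, had 233 and 388 counts against 223 and 112 (0.94, SE 0.48). The groups did not overlap for Prdm16, which was higher, and for Prdm2, which was lower, against 24.4% of all tested genes in either direction.

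H3K9 demethylases, which remove the mark, had 10 of 11 members tested, 6 of them positive, with a median of 0.18 against 0.0029 over all tested genes. Their groups did not overlap for 2 genes that were higher and 2 that were lower, against 24.4% of all tested genes in either direction. Jmjd1c, of the KDM3 family, had 4889 and 6878 counts in the libraries labelled knockout against 3578 and 4853 in wild type (0.53, SE 0.27). Kdm3a, which removes mono- and dimethyl marks, had 3605 and 11172 counts against 2970 and 4766 (1.00, SE 0.52), so knockout 2 alone was far above the other libraries. Kdm4b, which acts on the trimethyl mark, had 1872 and 3361 counts against 2035 and 1393 (0.66, SE 0.36). None of these passed, at adjusted p = 1.00 by the quasi-likelihood test.

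Partners of GLP and G9a had 10 of 10 members tested, 7 of them positive, with a median of 0.06. Mga, a MAX partner in a repressor complex that holds GLP and G9a, had 5221 and 9614 counts in the libraries labelled knockout against 5145 and 6412 in wild type (0.41, SE 0.33). L3mbtl2, of the same complex, had 3364 and 3690 counts against 2803 and 3351 (0.24, SE 0.22), the 1 member of 10 without overlap, against 24.4% of all tested genes. E2f6, its E2F subunit, had 464 and 319 counts against 484 and 457 (-0.23, SE 0.31). HP1 partners had 15 of 15 tested, 10 of them positive, with a median of 0.05. Of these 15, 1 was lower without overlap, against 12.7% of all tested genes, and 0 were higher, against 11.7%. Adnp, which forms a complex with CHD4 and HP1, had 3915 and 5029 counts in the libraries labelled knockout against 2818 and 4193 in wild type (0.40, SE 0.28). Pogz, a zinc finger protein that binds HP1, had 3453 and 4243 counts against 3032 and 3555 (0.27, SE 0.23), and Lrif1, another HP1-binding protein, had 142 and 478 counts against 71 and 289 (0.85, SE 0.78). For Lrif1 library 2 was the higher one in each group, as for Atrx.

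Histone H3.3 and its chaperones had 11 of 11 members tested, 10 of them positive, with a median of 0.16. Without overlap, 3 of the 11 were higher, against 11.7% of all tested genes, and 1 was lower, against 12.7%. Pml, the scaffold of nuclear bodies where DAXX gathers, had 5136 and 4287 counts in the libraries labelled knockout against 3378 and 3176 in wild type, 268 and 236 CPM against 177 and 165 CPM. Its log2 fold change was 0.56 (SE 0.21), the 1 gene of this list with an unadjusted p under 0.05 (0.0305), where 1.7% of all tested genes had one, and it did not pass after adjustment (adjusted p = 1.00 by the quasi-likelihood test). Asf1a, a chaperone of H3 and H4, had 526 and 826 counts against 377 and 536 (0.62, SE 0.35), and Ubn2, of the HIRA complex, had 1438 and 1955 counts against 1171 and 1373 (0.46, SE 0.26).

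Of 9 genes listed as silenced by G9a, mostly of the Magea family on the X chromosome, 2 were abundant enough to be tested. Magea4 had 8 and 67 counts in the libraries labelled knockout against 17 and 18 in wild type (1.16, SE 0.97), with the libraries labelled knockout on either side of wild type. Wfdc15a had 13 and 3 counts against 5 and 15 (-0.29, SE 0.95). Another 4 genes had a count of 0 in every library, which at these depths allows up to 0.157 to 0.159 CPM in a library (3 counts, counting error only). All 4 are Magea genes. How reads matching several genes were treated is not stated, and this bound does not cover reads left out for that reason.

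**Figure D5:**
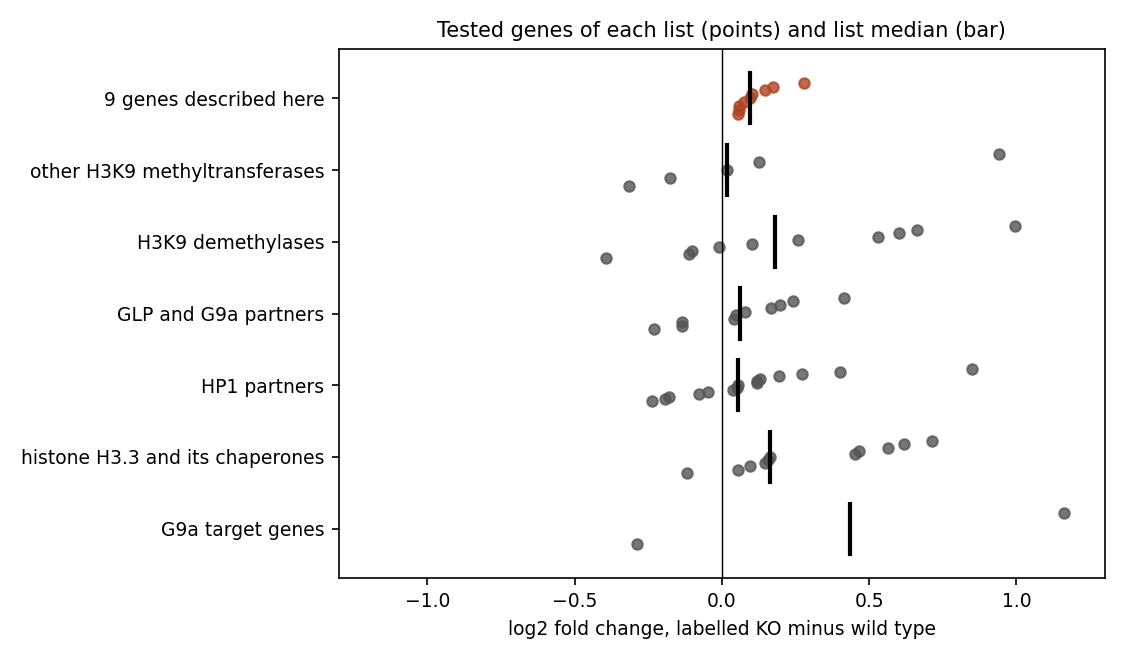
Log2 fold change (x axis, libraries labelled knockout minus wild type) of each tested gene of the 9 described here and of the 6 lists around them, with a bar at each median. The 9 genes lie between 0.06 and 0.28, and the H3K9 demethylases between -0.39 and 1.00.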

How the data were processed

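The deposited values are raw counts, whole numbers for each gene in 1 column per library. HISAT2, featureCounts and mm10 are named in the submitters' processing notes. Tool versions, annotation, strandedness and the treatment of multiply matching reads are not stated there. Per the labels' protocols, libraries were random-primed BGISEQ libraries read at 50 bp. Of 24116 Entrez numbers, 24061 matched a RefSeq symbol of GRCm38.p6.

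Here, filterByExpr kept 14194 genes, TMM scaled the libraries, and the quasi-likelihood test of edgeR 4.0.16 (R 4.3.3) compared genotypes. The standard error is the absolute log2 fold change over the square root of F. Log2 CPM used a prior count of 2. The fit was tested on simulated counts. Other scalings, filters, DESeq2 1.42.0, limma 3.58.1 (voom), the likelihood ratio test, a replicate block and each library left out were tried. The rule for names took all 9 genes, the 3 lowest p-values per pathway list and the 3 genes nearest in profile. The members and lists were chosen with earlier results of these data known, and the motifs after reading the promoters.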

Additional observations from a re-analysis of the deposited data

How the results depend on the processing

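Of the 9 genes 0 were called in every setting run (3 scalings, 2 filters, DESeq2, limma-voom, likelihood ratio test, replicate block, each library left out). Over all genes DESeq2 called 2, the likelihood ratio test 4, and leaving out single libraries 0 to 91. The fold changes of the 9 kept their sign outside the fits without 1 library. There Ehmt1 ran from 0.036 to 0.30, Ehmt2 from 0.018 to 0.20, Cbx3 from 0.0055 to 0.63, Suv39h1 from -0.22 to 0.51, Suv39h2 from -0.015 to 0.34, Cbx1 from -0.022 to 0.13, Cbx5 from -0.10 to 0.20, Atrx from -0.28 to 0.55 and Daxx from -0.062 to 0.20, and the median of the 9 from 0.040 to 0.15. With upper quartile scaling 0 of the 9 were higher without overlap, against 10.2% of all tested genes. Higher ones numbered 2 without knockout 1 (37.0% of all), 5 without knockout 2 (26.0%), 4 without wild type 1 (29.0%) and 5 without wild type 2 (33.8%). Lower ones numbered 0 without knockout 2 (25.3%) and 1 without each other library (27.1% to 36.6%). Exon sets of the basic and full annotation were added after the data were seen.

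The replicate numbers are not said to pair the libraries. Deviations of same-numbered libraries correlated at r = 0.35 across genes, a hint from the data only. With the replicate block the median of the 9 was 0.11, 0 genes were called and the lowest unadjusted p of the 9 was 0.230. Over all 14194 tested genes, 735 had an unadjusted quasi-likelihood p under 0.05 with the block, against 242 without it. Of the 9 genes, 0 did so with the block. Adding pseudogene rows was not run, because no row of the table matched one. With the block the SE was 0.18 in place of 0.34 for Atrx and 0.21 in place of 0.33 for Suv39h1. Each of the 9 genes had at least 512 counts in every library.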
